A study of Rattus norvegicus with 18 samples.

Results

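Mitogen-activated protein (MAP) kinases and the dual-specificity phosphatases (DUSPs) that switch them off were followed in polyadenylated RNA of the left ventricle of 18 male rats. ZSF1 obese rats (n = 6), labelled as hypertensive with metabolic syndrome, stood for heart failure in which ejection fraction is preserved (HFpEF). ZSF1 lean rats (n = 6) were the hypertensive group, and Wistar Kyoto rats (WKY, n = 6) were the control strain. As background, ZSF1 rats come from a cross of a pair of rat lines that carry different faulty leptin receptor alleles, and obese animals inherit a faulty copy from each side. Obese and lean rats thus share a strain background, while WKY differs from both in strain. The age of the rats is not given in the sources used here. Members were all genes whose symbol begins with Map2k, Map3k or Map4k and a number, with Mapk, or with Dusp and a number. Of 81 such genes, all matched to RefSeq and 1 of them, Dusp27, under a newer symbol, 38 stood in at least 1 of the authors' 3 lists of changed genes, which together hold 6588 genes.

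A MAP kinase cascade is a relay of kinases. MAP4Ks and small G proteins switch on MAP3Ks, which phosphorylate MAP2Ks, which in turn phosphorylate a MAP kinase on a threonine and a tyrosine. The ERK branch answers mainly to growth factors, while the JNK and p38 branches answer mainly to stress and cytokines, and all of them have been studied in cardiac hypertrophy and failure. DUSPs of the MAP kinase phosphatase (MKP) type remove both phosphates, and several are themselves induced by the kinases they silence, which closes a feedback loop. These are transcript measurements, and kinase activity was not measured.

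Each value below is the authors' fold, the first-named group over the second, with the authors' adjusted p from their DESeq2 comparison of 6 rats with 6. Every listed gene has a fold of 2 or more, or 0.5 or less, with adjusted p under 0.05. Values per rat, levels, standard errors and genes short of these limits are not part of the lists, so overlap between rats, sequencing depth and the precision behind a level are unknown. A member that is not listed may have changed less, varied more or not been detected. The obese comparisons share the obese rats and are therefore not independent of each other.

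In obese against lean hearts 34 of the 81 members were listed, 42.0%, beside 23.1% of all RefSeq protein-coding genes, a background that includes genes the heart may not express. Of these members 13 rose and 21 fell, so 61.8% of the listed members fell, where 53.4% of the 5700 genes of the authors' deposited table rose and 46.6% fell. In obese against WKY hearts 33 members were listed, 40.7% beside 23.3%, of which 14 rose and 19 fell. Falls made up 57.6% of these listed members, where 54.0% of the 5709 genes of the authors' deposited table rose and 46.0% fell. The tables shared 30 members, whose values are given side by side and not as support for each other. In lean against WKY hearts only 2 members, Map3k7 and Map3k5, were listed, and both were higher in lean hearts. That is 2.5% of members, beside 0.898% of RefSeq protein-coding genes, and 63.9% of the genes of that list rose and 36.1% fell.

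**Figure D1:**
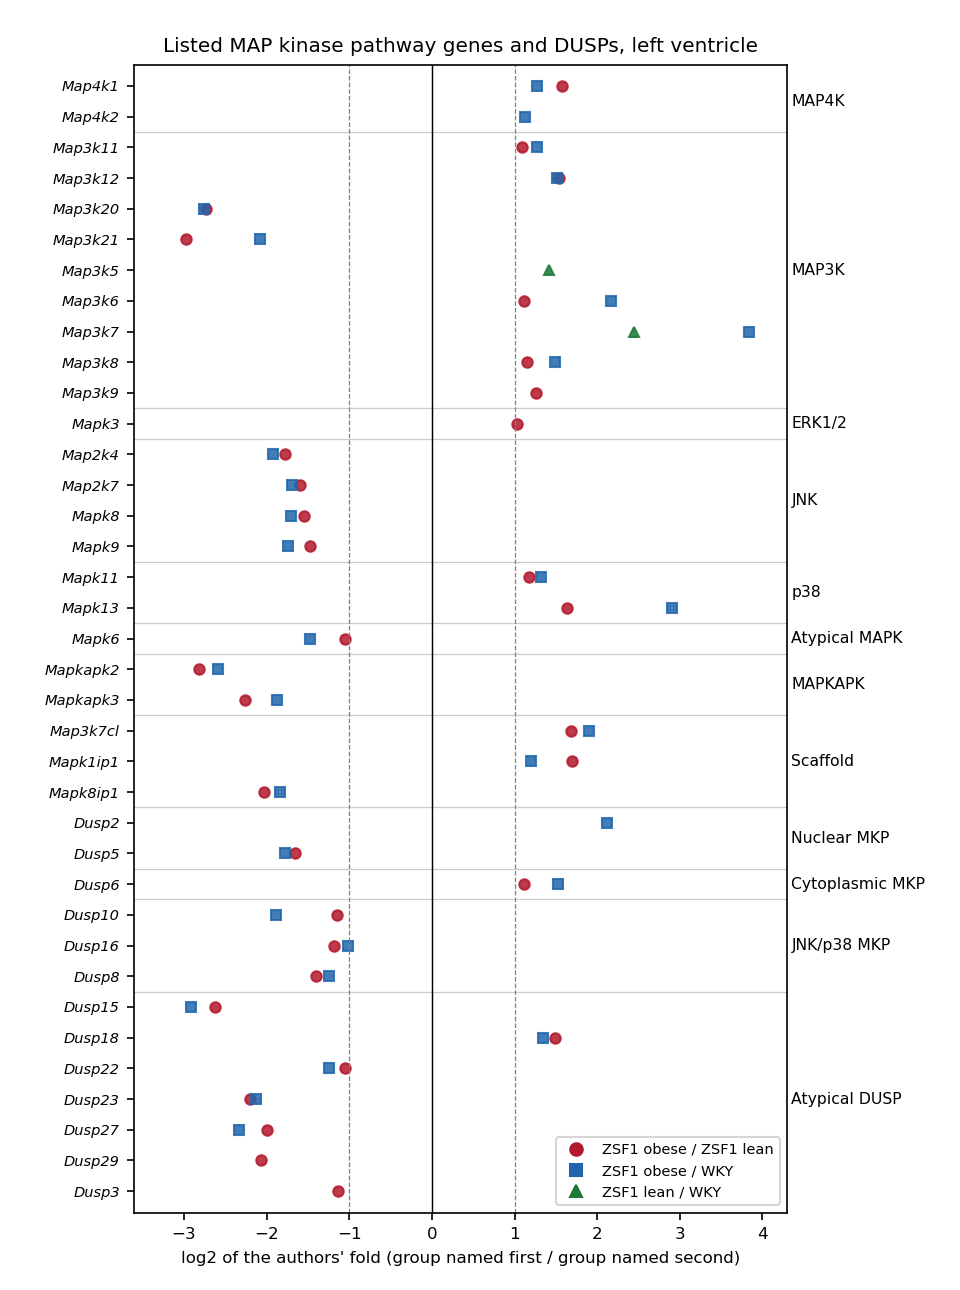
Each row is a listed member reported here, grouped by role, and each point is the log2 of the authors' fold on the x axis (circles for ZSF1 obese over ZSF1 lean, squares for ZSF1 obese over WKY, triangles for ZSF1 lean over WKY), with dashed lines at the list's limits of -1 and 1. The JNK, MAPKAPK and JNK/p38 MKP rows lie left of 0 throughout, and the p38 and MAP4K rows lie right of 0.

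Cell type markers moved with these groups. In the authors' deposited table for obese against lean hearts, 5 of 12 cardiomyocyte markers (Atp2a2, Ryr2, Actc1, Myh6 and Myl3) were lower (folds 0.084 to 0.369) and 0 higher, while 10 of 12 endothelial (2.19 to 4.96), 11 of 12 macrophage (2.53 to 9.00), 8 of 12 fibroblast (2.31 to 20.0) and 7 of 12 lymphocyte markers (2.46 to 5.21) were higher and 0 lower. Of 8 neutrophil markers 5 were higher and 1 lower, and of 10 smooth muscle and pericyte markers 4 were higher and 2 lower. Against WKY, 5 of 12 cardiomyocyte markers were lower (0.097 to 0.371), and 10 endothelial, 11 macrophage, 10 fibroblast and 7 lymphocyte markers were higher, each of 12, in the authors' deposited table. Of 8 neutrophil markers 2 were higher and 1 lower there. For the 10 smooth muscle and pericyte markers these counts were 4 and 2. In lean against WKY hearts 1 macrophage marker was lower, and 1 neutrophil marker was higher and 3 lower. Fewer cells of a type and less RNA per cell cannot be told apart in whole tissue, and the part of cell composition in the results below was not tested. Marker levels are not in these lists, so the labelled tissue could not be checked against its markers.

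The JNK branch fell at both of its tiers. Its MAP2Ks are Map2k4 and Map2k7, encoding MKK4 and MKK7, and its MAP kinases are Mapk8, Mapk9 and Mapk10, encoding JNK1, JNK2 and JNK3. Map2k4 was at 0.291 of its lean level in obese hearts (adjusted p = 3.13e-74) and at 0.264 of the WKY level (adjusted p = 7.57e-44) in the authors' deposited tables. Map2k7 stood at 0.332 of the lean level (adjusted p = 1.06e-46) and 0.310 of the WKY level (adjusted p = 3.57e-42) in the authors' deposited tables. Mapk8, the stress kinase first named for phosphorylating c-Jun, stood at 0.342 (adjusted p = 1.15e-34) and 0.306 (adjusted p = 1.03e-45) of the lean and WKY levels in the authors' deposited tables. For Mapk9 the same tables gave 0.361 of the lean level (adjusted p = 3.65e-144) and 0.299 of the WKY level (adjusted p = 7.08e-76). These 4 of 5 JNK branch genes had folds of 0.291 to 0.361 against lean and 0.264 to 0.310 against WKY. Such folds lie near the median of all genes that fell, 0.314 against lean and 0.312 against WKY. Listed were 80.0% of the branch in each, beside 23.1% and 23.3% of RefSeq protein-coding genes. Of all listed genes 46.6% and 46.0% fell. Mapk10, whose product is known mainly from nervous tissue and heart, was not listed. Mapk8ip1, encoding the scaffold JIP1 that holds a MAP3K, MKK7 and JNK together, fell as well, to 0.245 of the lean level (adjusted p = 4.12e-101) and 0.279 of the WKY level (adjusted p = 2.28e-42) in the authors' deposited tables.

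The promoters of the JNK branch genes are shown because these genes fell in the same comparisons. They are the 250 bases before the gene start in RefSeq, build GRCr8, read 5′ to 3′ on the gene's strand, for Map2k4 (chr10:50947040-50947289, minus strand), Map2k7 (chr12:7389017-7389266, plus strand) and Mapk8 (chr16:8728226-8728475, minus strand). The RefSeq promoter table held no entry for Mapk9. Capitals mark matches on either strand to the cyclic AMP response element (CRE, TGACGTCA), its half-site (TGACG, contained in the full element), the AP-1 site (TGANTCA), the GC box (GGGCGG), the CArG box and the MEF2 site.
Map2k4: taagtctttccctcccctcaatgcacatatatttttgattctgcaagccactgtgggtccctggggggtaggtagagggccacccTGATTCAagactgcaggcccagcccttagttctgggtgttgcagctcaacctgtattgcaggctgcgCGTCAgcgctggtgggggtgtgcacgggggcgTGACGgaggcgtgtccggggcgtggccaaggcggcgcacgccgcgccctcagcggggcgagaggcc
Map2k7: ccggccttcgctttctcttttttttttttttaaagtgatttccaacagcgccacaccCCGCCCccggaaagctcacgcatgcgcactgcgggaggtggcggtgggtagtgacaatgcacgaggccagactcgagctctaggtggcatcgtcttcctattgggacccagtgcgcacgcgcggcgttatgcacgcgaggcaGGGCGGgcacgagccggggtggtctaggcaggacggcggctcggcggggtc
Mapk8: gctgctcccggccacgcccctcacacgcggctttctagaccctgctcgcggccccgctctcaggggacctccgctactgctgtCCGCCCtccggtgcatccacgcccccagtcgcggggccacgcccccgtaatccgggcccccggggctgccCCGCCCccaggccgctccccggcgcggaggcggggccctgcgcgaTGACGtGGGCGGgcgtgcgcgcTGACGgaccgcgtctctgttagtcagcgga
No motif of the 6 was present in all of these promoters. Map2k4 and Mapk8 each held 2 CRE half-sites, which occur in 18.2% of the 33469 promoters of the same length in the table. Map2k7 held 2 and Mapk8 3 GC boxes, found in 30.5% of those promoters. The AP-1 match in Map2k4, a motif of the dimers that c-Jun forms, occurs in 6.34% of them. All promoters were counted with no filter for protein-coding genes, while the members are protein-coding. These shares may thus not be for a like set of genes. A match of letters is a description and not a bound site.

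In the p38 branch the listed kinases rose, while the listed MAPKAP kinases, given below, fell. Mapk13, encoding p38delta, reached 3.10 times its lean level in obese hearts (adjusted p = 0.00384) and 7.52 times its WKY level (adjusted p = 6.10e-06) in the authors' deposited tables. Mapk11, encoding p38beta, had folds of 2.25 (adjusted p = 2.98e-07) and 2.497 (adjusted p = 3.76e-07) against lean and WKY in the authors' deposited tables. The other p38 kinases, Mapk14 (p38alpha, the form usually most abundant in heart) and Mapk12 (p38gamma), and the MAP2Ks placed in this branch, Map2k3 and Map2k6, were not listed. Each MAP2K was placed in a single branch here, with Map2k4 counted under JNK alone.

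Mapkapk2 and Mapkapk3 encode MK2 and MK3, kinases that p38alpha and p38beta switch on and that act on a small heat shock protein and on proteins controlling mRNA decay. Mapkapk2 was at 0.142 of its lean level in obese hearts (adjusted p = 1.05e-265; the authors' deposited table), the 24th smallest adjusted p of 5700 genes. Against WKY it stood at 0.166 in the authors' deposited table (adjusted p = 9.25e-132). Mapkapk3 stood at 0.209 of the lean level (adjusted p = 2.16e-48) and 0.274 of the WKY level (adjusted p = 2.34e-26) in the authors' deposited tables. Mapkapk5, a relative linked to the atypical kinases ERK3 and ERK4, was not listed. The listed p38 and MAPKAP genes thus lay on opposite sides of the lists' limits, at folds of 2.25 and 3.10 for 2 of 6 p38 branch genes and of 0.142 and 0.209 for 2 of 3 MAPKAP kinases against lean. That is 33.3% and 66.7% listed, beside 23.1% of RefSeq protein-coding genes, and few genes decide these shares.

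In the ERK branch, Mapk3, encoding ERK1, reached 2.04 times its lean level in obese hearts (adjusted p = 8.63e-34) in the authors' deposited table and was not listed against WKY. That fold lies just inside the limit of 2, so its absence from the WKY list does not show a different response there. RefSeq also holds pseudogenes named for Mapk3 elsewhere in the genome, and how reads that fit several genes were counted is not given in the sources used here. Map2k1 and Map2k2, encoding MEK1 and MEK2, and the ERK5 branch genes Map2k5 and Mapk7 were not listed in any table. Among the atypical MAP kinases, Mapk6 (ERK3) stood at 0.483 of the lean level (adjusted p = 4.03e-31) and 0.361 of the WKY level (adjusted p = 2.82e-36) in the authors' deposited tables, while Mapk4 and Mapk15 were not listed.

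**Figure D2:**
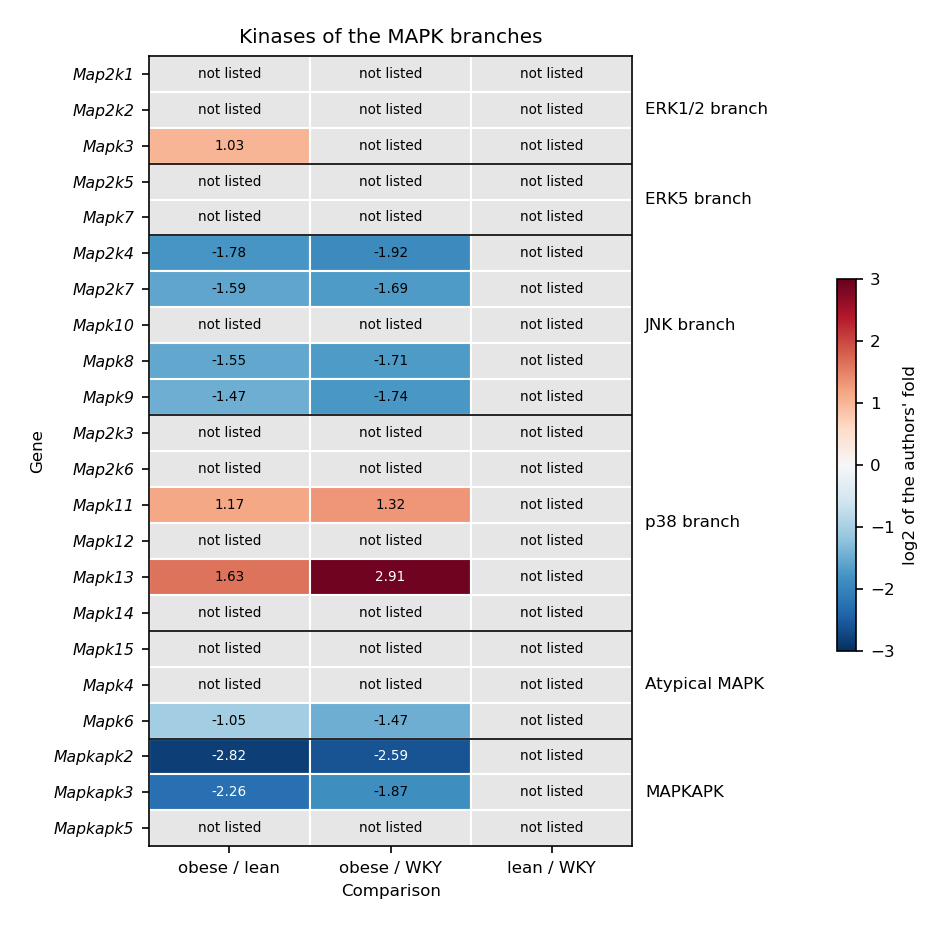
Rows are the reported kinases of each MAPK branch and columns the comparisons; the number and colour in a cell are the log2 of the authors' fold (blue lower, red higher in the group named first), and grey cells are genes not listed. The 4 listed JNK branch genes lie between -1.92 and -1.47, Mapk3 is positive against lean, and Mapk11 and Mapk13 are positive above a pair of negative MAPKAP kinases.

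At the MAP3K tier 5 of 18 genes rose and 2 fell in obese against lean hearts. Against WKY 5 also rose and 2 fell, with Map3k7 listed there and Map3k9 not. That is 38.9% listed in each, beside 23.1% and 23.3% of RefSeq protein-coding genes. Map3k20 encodes ZAK, a kinase that senses stalled ribosomes and signals to JNK and p38. It stood at 0.151 of the lean level (adjusted p = 1.36e-164) and 0.148 of the WKY level (adjusted p = 1.34e-155) in the authors' deposited tables, the 90th and the 38th smallest adjusted p in these tables. Map3k21, encoding the mixed lineage kinase MLK4, stood at 0.127 of the lean level (adjusted p = 3.45e-07) and 0.237 of the WKY level (adjusted p = 0.00465) in the authors' deposited tables. These were the lowest folds of the kinases against lean, beside that of Mapkapk2.

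Of the other mixed lineage kinases and their relatives, Map3k11, Map3k12 and Map3k9 were listed as higher, while Map3k10 (MLK2) and Map3k13 (LZK) were not listed. Map3k11 (MLK3) had folds of 2.13 (adjusted p = 1.02e-27) and 2.41 (adjusted p = 3.56e-26) against lean and WKY in the authors' deposited tables. Map3k12 (DLK, best known from injured neurons) had folds of 2.91 (adjusted p = 8.33e-27) and 2.87 (adjusted p = 3.87e-17) there. Map3k9 (MLK1) was listed against lean alone, with a fold of 2.40 and an adjusted p of 0.0137, the largest among the members of that list (the authors' deposited table). The MLK family thus held members with higher and lower transcript levels in the same hearts.

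Map3k8, Map4k1 and Map3k6 were higher in both obese comparisons. Map3k8, encoding TPL2, the MAP3K that links Toll-like receptors to MEK in macrophages, had folds of 2.22 (adjusted p = 1.95e-09) and 2.81 (adjusted p = 6.18e-19) in obese hearts against lean and WKY in the authors' deposited tables. Map4k1, encoding HPK1 of blood cells, had folds of 2.99 (adjusted p = 3.74e-13) and 2.41 (adjusted p = 5.45e-10) there, and Map4k2 was listed against WKY alone at 2.19 (adjusted p = 9.75e-14). Macrophage and lymphocyte markers were higher in the same comparisons, as given above. Map3k6, encoding ASK2, had folds of 2.17 (adjusted p = 7.41e-05) and 4.50 (adjusted p = 1.23e-11) against lean and WKY in the authors' deposited tables. The remaining MAP3Ks Map3k1, Map3k2, Map3k3, Map3k4, Map3k14, Map3k15 and Map3k19, and the MAP4Ks Map4k3, Map4k4 and Map4k5, were not listed.

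A pair of MAP3Ks separated the hypertensive lean hearts from WKY. Map3k7, encoding TAK1, which relays TGF-beta and interleukin-1 signals to JNK, p38 and NF-kappaB, was 5.46 times as high in lean as in WKY hearts (adjusted p = 2.24e-32) in the authors' deposited table. In obese against WKY hearts its fold was 14.3 (adjusted p = 5.15e-33), by the authors' deposited table the 39th highest of 5709. It was not listed in obese against lean hearts. Map3k5, encoding ASK1, a redox-sensitive activator of JNK and p38, was 2.68 times as high in lean as in WKY hearts (adjusted p = 6.21e-25) in the authors' deposited table and was listed in neither obese comparison. In these comparisons with WKY the strain differs together with the disease, and they cannot be told apart. The 27 DUSPs and the other 44 kinases held no listed gene in lean against WKY hearts, in a list whose largest adjusted p was 0.000347, beside 0.0498 in the list for obese against lean.

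Among the scaffolds and binding proteins, 2 of 8 genes rose and 1, Mapk8ip1, fell in obese hearts in each comparison. That is 37.5% listed in each, beside 23.1% and 23.3% of RefSeq protein-coding genes. Mapk1ip1, which encodes a protein that steadies the meiotic spindle in mouse oocytes, had folds of 3.23 (adjusted p = 3.47e-43) and 2.30 (adjusted p = 2.38e-15) against lean and WKY in the authors' deposited tables. Map3k7cl, named for likeness to the end of TAK1 and with no kinase domain, had folds of 3.20 (adjusted p = 5.63e-26) and 3.73 (adjusted p = 1.41e-29) there.

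The phosphatases that prefer JNK and p38 all fell. Dusp8, Dusp10 and Dusp16 encode MKPs that remove phosphate from JNK and p38 in preference to ERK. Dusp8 was at 0.379 of its lean level in obese hearts (adjusted p = 3.86e-16) and 0.420 of the WKY level (adjusted p = 1.39e-11) in the authors' deposited tables. Dusp10 (MKP-5) stood at 0.451 (adjusted p = 4.93e-07) and 0.270 (adjusted p = 7.62e-16) of the lean and WKY levels in the authors' deposited tables. Dusp16 (MKP-7) stood at 0.438 (adjusted p = 1.30e-15) and 0.497 (adjusted p = 2.00e-09) there, the last of these close to the limit of 0.5. These 3 phosphatases and the listed JNK kinases were thus lower in the same comparisons. All 3 of this class were listed in each, beside 23.1% and 23.3% of RefSeq protein-coding genes. Of all listed genes 46.6% and 46.0% fell.

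The ERK phosphatases moved apart. Dusp6, encoding the cytoplasmic ERK phosphatase MKP-3, reached 2.16 times its lean level in obese hearts (adjusted p = 3.28e-31) and 2.89 times its WKY level (adjusted p = 3.80e-23) in the authors' deposited tables. Dusp5, encoding an ERK phosphatase of the nucleus, stood at 0.316 of the lean level (adjusted p = 1.36e-09) and 0.291 of the WKY level (adjusted p = 1.57e-11) in the authors' deposited tables. Both are known feedback genes of ERK signalling, and they lay on opposite sides in the same comparisons. Dusp2 (PAC-1), a nuclear phosphatase of activated immune cells, was listed against WKY alone with a fold of 4.347 (adjusted p = 2.37e-10) in the authors' deposited table. Dusp1 (MKP-1), Dusp4, Dusp7 and Dusp9 were not listed in any table.

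The promoters of Dusp5 and Dusp6 are shown because these genes share a place in the ERK loop and differed in direction, and that of Dusp29, described next, because it holds the sole MEF2 match among the members. They are from RefSeq, build GRCr8, for Dusp5 (chr1:262543524-262543773, plus strand), Dusp6 (chr7:35979354-35979603, plus strand) and Dusp29 (chr15:2642656-2642905, plus strand), with capitals as above.
Dusp5: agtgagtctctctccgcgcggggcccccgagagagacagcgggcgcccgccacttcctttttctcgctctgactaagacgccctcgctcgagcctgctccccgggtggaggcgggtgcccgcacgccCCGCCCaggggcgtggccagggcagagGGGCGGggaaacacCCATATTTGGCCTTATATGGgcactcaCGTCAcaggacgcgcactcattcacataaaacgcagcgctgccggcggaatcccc
Dusp6: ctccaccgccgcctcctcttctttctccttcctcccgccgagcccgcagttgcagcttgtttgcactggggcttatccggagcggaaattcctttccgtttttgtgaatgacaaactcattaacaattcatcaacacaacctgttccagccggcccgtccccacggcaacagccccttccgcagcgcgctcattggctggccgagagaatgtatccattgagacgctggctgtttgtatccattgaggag
Dusp29: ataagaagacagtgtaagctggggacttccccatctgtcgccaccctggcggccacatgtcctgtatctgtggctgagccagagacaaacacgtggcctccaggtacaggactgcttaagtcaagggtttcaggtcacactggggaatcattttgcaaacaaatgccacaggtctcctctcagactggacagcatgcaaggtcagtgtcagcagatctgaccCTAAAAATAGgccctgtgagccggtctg
Dusp5 held 2 adjoining CArG boxes, the motif bound by serum response factor (SRF), which occurs in 1.5% of the promoters in the table. Dusp6 held none of the 6 motifs in this window. The MEF2 match of Dusp29 begins at position -28 from the gene start, and the motif occurs in 0.523% of promoters. Among the 67 members with a single promoter in the table, a CArG box was found in 2 (Dusp5 and Map4k1), a full CRE in 5 (1.59% of all promoters), a CRE half-site in 23 and a GC box in 45. The shares over all promoters have the limit given above, that they were not filtered for protein-coding genes. A CRE half-site was present in 9 of 18 members that fell and in 2 of 11 that rose against lean. For the GC box these counts were 11 and 8, and for the full CRE 0 and 1. AP-1 and the CArG box each had 1 and 1, and the MEF2 site 1 and 0. The half-site showed the widest gap of the 6 motifs, it was not counted over all genes that fell or rose, and no difference was tested.

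Most listed atypical DUSPs fell. These are small phosphatases that lack the MAP kinase docking domain and often act on other substrates. Against lean 6 of 17 fell and 1 rose, and against WKY 4 fell and 1 rose. That is 41.2% and 29.4% listed, beside 23.1% and 23.3% of RefSeq protein-coding genes. Dusp15 stood at 0.163 of the lean level (adjusted p = 4.49e-21) and 0.132 of the WKY level (adjusted p = 4.06e-27) in the authors' deposited tables, the lowest folds of any phosphatase. Dusp23 stood at 0.218 (adjusted p = 6.85e-61) and 0.228 (adjusted p = 2.09e-43) of the lean and WKY levels in the authors' deposited tables.

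Muscle members were among them. Dusp27, now named Styxl2, encodes a catalytically inactive relative of striated muscle that myofibril assembly needs in zebrafish. It stood at 0.250 of the lean level (adjusted p = 4.87e-33) and 0.199 of the WKY level (adjusted p = 6.53e-40) in the authors' deposited tables. Dusp29, a phosphatase of skeletal and cardiac muscle, stood at 0.238 of the lean level (adjusted p = 0.000474) in the authors' deposited table and was not listed against WKY. Of 12 cardiomyocyte markers 5 were lower and 7 were not listed in each obese comparison.

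The remaining listed atypical DUSPs had smaller folds. Dusp3 (VHR), which acts on ERK and JNK, stood at 0.454 of the lean level (adjusted p = 3.94e-35) in the authors' deposited table and was not listed against WKY. Dusp22 stood at 0.483 (adjusted p = 3.75e-15) and 0.423 (adjusted p = 6.78e-14) of the lean and WKY levels in the authors' deposited tables. Dusp18, whose product has been found in mitochondria, was the atypical member that rose, with folds of 2.81 (adjusted p = 1.19e-49) and 2.53 (adjusted p = 6.36e-16) against lean and WKY in the authors' deposited tables.

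At the lists' own limits kinases were listed about evenly in both directions, and phosphatases mostly fell. Of 46 kinases 9 rose and 10 fell against lean, and 9 rose and 10 fell against WKY. Of 27 DUSPs 2 rose and 10 fell against lean, and 3 rose and 8 fell against WKY. Listed were 41.3% of kinases in each, and 44.4% and 40.7% of DUSPs, beside 23.1% and 23.3% of RefSeq protein-coding genes. The share that fell among listed DUSPs was 83.3% against lean and 72.7% against WKY, beside 52.6% of listed kinases in each and 46.6% and 46.0% of all listed genes. With 12 and 11 listed DUSPs a few genes decide these shares, and the difference between kinases and phosphatases was not tested. Among members that fell against lean, the median fold was 0.311 for kinases and 0.348 for DUSPs, beside 0.314 for all genes that fell in the authors' deposited table. Among those that rose it was 2.25 for kinases and 2.48 for DUSPs, beside 3.01 for all genes that rose. When a fold of 3 or more, or its inverse or less, was required, 1 kinase rose and 6 fell against lean. Against WKY 3 kinases then rose and 9 fell. The same count over all listed genes was not made.

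**Figure D3:**
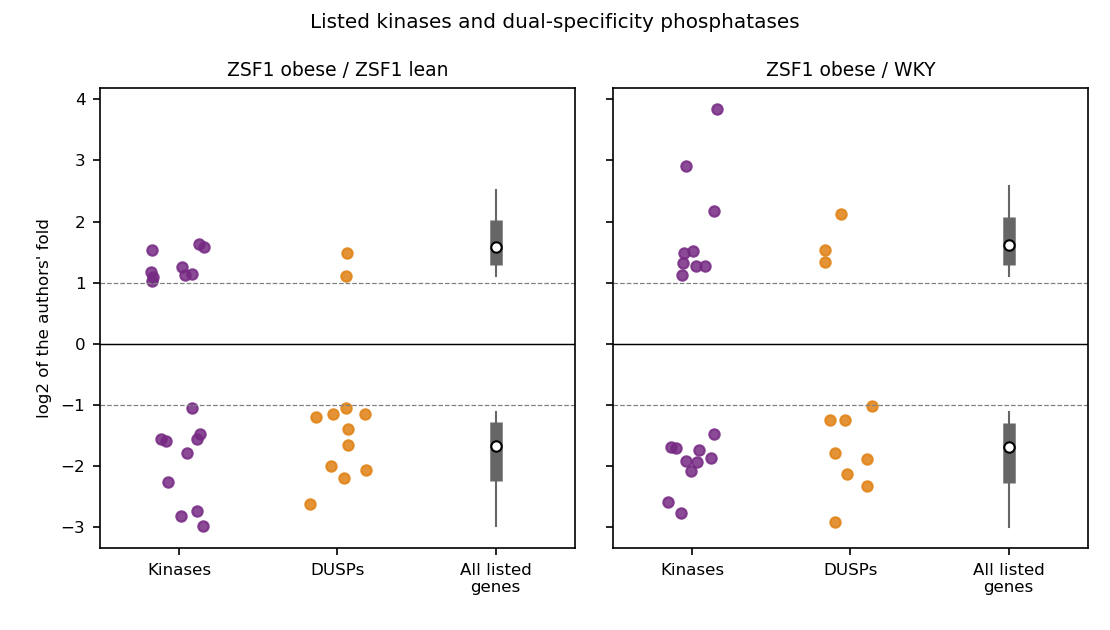
The y axis is the log2 of the authors' fold; points are listed kinases and DUSPs, spread sideways only for legibility. Grey bars span the 25th to 75th and lines the 10th to 90th percentile of all listed genes that rose or fell, with the median as a white point. Of the DUSPs 2 of 12 lie above 0 in the panel against lean and 3 of 11 in the panel against WKY.

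Around the cascade, Araf and Braf, encoding MAP3Ks of the ERK branch, fell. The RAS and RAF list gave 4 falls and 1 rise among 19 genes against lean, and 3 falls and 1 rise against WKY. That 26.3% and 21.1% of its genes were listed is close to the 23.1% and 23.3% of all RefSeq protein-coding genes. By the authors' deposited table, Araf stood at 0.435 (adjusted p = 2.94e-56) and Braf at 0.328 of the lean level (adjusted p = 9.52e-21). The adaptor gene Grb2 stood at 0.467 (adjusted p = 6.81e-21), while Rasgrp2, an exchange factor known from platelets and other blood cells, had a fold of 2.87 (adjusted p = 7.85e-19) in the authors' deposited table.

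Genes that feed the JNK and p38 MAP3Ks fell in 6 and rose in 2 of 20 cases against lean, and fell in 7 and rose in 2 against WKY, so 40.0% and 45.0% of the list were listed, beside 23.1% and 23.3% of RefSeq protein-coding genes. Tab2 and Tab3, encoding the ubiquitin-binding partners of TAK1, stood at 0.467 (adjusted p = 1.96e-42) and 0.418 (adjusted p = 1.50e-08) of the lean level in the authors' deposited table. Map3k7 itself was higher against WKY, so TAK1 and its partner genes differed in direction there, with Tab2 at 0.429 and Tab3 at 0.287 of the WKY level in the authors' deposited table. Taok1 stood at 0.463, Gadd45a at 0.346 and Tnik at 0.330 of the lean level, and Ripk1, a kinase of the TNF receptor complex, had a fold of 2.91 (adjusted p = 2.13e-79) in the authors' deposited table. Gadd45g, whose product activates the MAP3K MEKK4, was 2.23 times as high in lean as in WKY hearts (adjusted p = 2.26e-16) in the authors' deposited table.

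Other inhibitors were mixed, with 4 rises and 3 falls among 16 genes in each obese comparison, or 43.8% listed beside 23.1% and 23.3%. Ppm1a and Ppm1b, encoding serine/threonine phosphatases that act on MKK and p38 or TAK1, stood at 0.224 (adjusted p = 7.82e-107) and 0.332 (adjusted p = 2.56e-55) of the lean level in the authors' deposited table. Ptpn7, a MAP kinase tyrosine phosphatase of blood cells, had a fold of 3.48 (adjusted p = 1.89e-21) in the authors' deposited table. Pebp1, which holds RAF back, stood at 0.454 and Ppm1d had a fold of 2.03 there. Of the Sprouty and Spred genes, Spred3 rose against lean (fold 2.71, adjusted p = 3.21e-06) in the authors' deposited table. Kinases below the MAP kinases gave 2 rises and 2 falls among 8 against lean, with Rps6ka1 (RSK1) at a fold of 2.83 and Mknk2 (MNK2) at 0.457, and 1 rise against WKY in the authors' deposited tables. That is 4 and 1 of these 8 genes, beside the same 23.1% and 23.3%.

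Targets of the pathway were listed in few cases. Of 18 immediate early and ERK target genes 4 rose and 0 fell against lean. These were Myc (fold 2.71, adjusted p = 1.78e-12), Etv4 (2.53, adjusted p = 4.39e-08), Etv5 (2.03, adjusted p = 2.84e-11) and Ccnd1 (2.00, adjusted p = 4.18e-11) in the authors' deposited table. Against WKY 4 rose and 1 fell. That 22.2% and 27.8% of the list were listed is close to the 23.1% and 23.3% of all RefSeq protein-coding genes.

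Transcription factors that MAP kinases phosphorylate fell in 4 and rose in 1 of 14 cases against lean, and fell in 5 and rose in 1 against WKY, which is 35.7% and 42.9% of the list beside 23.1% and 23.3%. In obese against lean hearts Elk1 stood at 0.262 (adjusted p = 3.49e-106), Mef2d at 0.264 (adjusted p = 5.80e-72), Srf at 0.403 (adjusted p = 7.24e-46) and Gata4 at 0.222 (adjusted p = 1.67e-38), all from the authors' deposited table. Elk3, a relative of Elk1 known from endothelium, had a fold of 4.00 (adjusted p = 1.28e-59) there, and endothelial markers were higher in the same comparison.

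**Figure D4:**
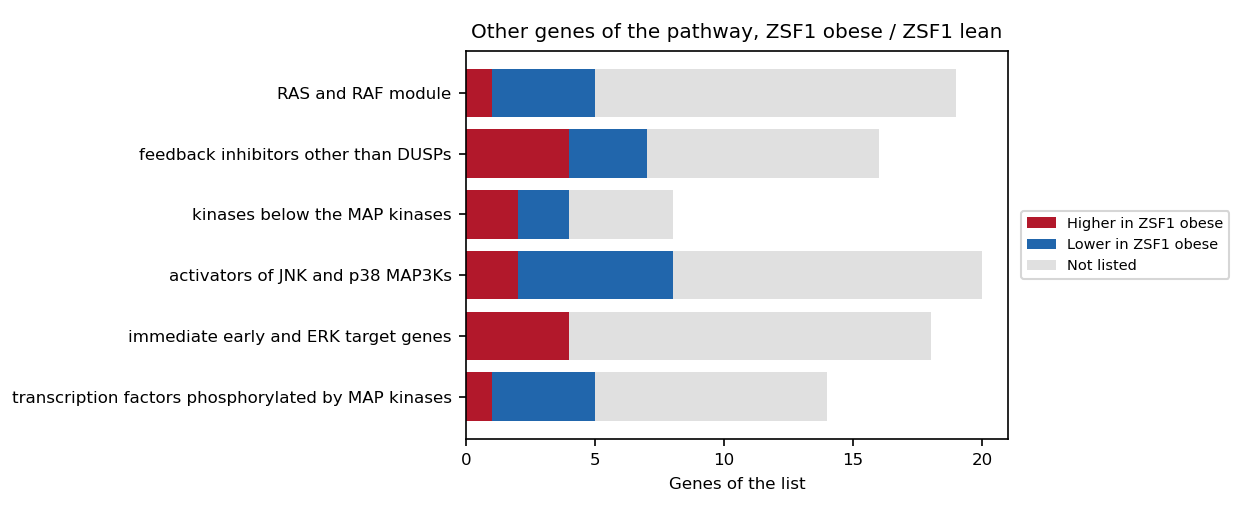
Bars give, for each list of other pathway genes, the number of genes higher in ZSF1 obese (red), lower (blue) and not listed (grey) against ZSF1 lean in the authors' deposited table. The RAS and RAF, MAP3K activator and transcription factor lists hold more falls than rises (4 and 1, 6 and 2, 4 and 1), and the target list holds 4 rises and 0 falls.

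Gene span moved with direction among the members and among all listed genes. Members that rose against lean had a median span of 13.3 kb (4.3 to 65.3 kb) and those that fell 34.7 kb (2.2 to 159.4 kb) in RefSeq, beside 20.3 kb and 32.9 kb over all listed genes with a span. Against WKY the medians were 14.5 kb for members that rose and 34.7 kb for those that fell, beside 20.7 kb and 33.9 kb. Mapk3, which rose, spans 6.2 kb. Within the JNK branch, Map2k4 spans 104.7 kb and Map2k7 9.3 kb, and their folds against lean were 0.291 and 0.332 in the authors' deposited table. The part of gene span in these results was not tested.

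**Figure D5:**
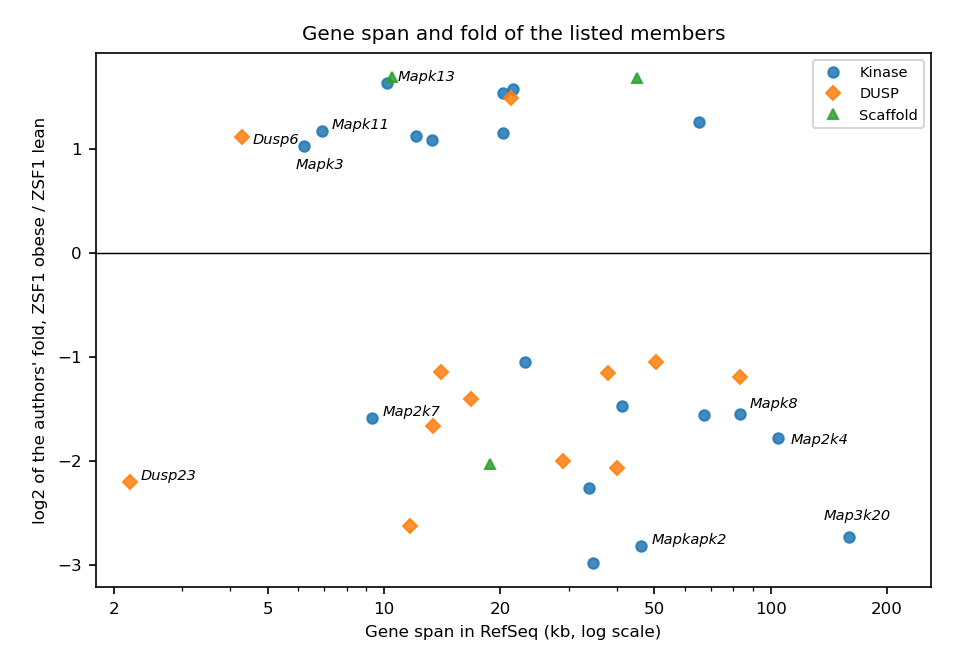
The x axis is the span of each listed member in RefSeq in kb (log scale) and the y axis the log2 of the authors' fold of ZSF1 obese over ZSF1 lean, with symbols for kinases, DUSPs and scaffolds. Members that rose lie mostly toward shorter spans (median 13.3 kb) than those that fell (median 34.7 kb), with Map2k7 and Dusp23 as short genes that fell.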

How the data were processed

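Left ventricular polyadenylated RNA of 18 rats was selected with a stranded kit and sequenced, per the labels' protocols. The submitters' processing notes name Rnor_6.0, HISAT2 2.1.0, HTSeq 0.11.2 and DESeq2 1.22.2, with no settings or strand mode. Per the file headers, the authors deposited a linear fold (the ratio of one group's level over the other's) and a false discovery rate (an adjusted p-value) for 5700, 5709 and 233 changed genes. No fold lay between 0.5 and 2, as tested. Counts, depth and values per rat were not analysed here, so no test, left-out rat or batch check was run.

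Log2 folds, counts by role and medians were computed with Python 3.11.15 and pandas 2.3.3. The rule for members and their roles was tested on planted gene symbols. Folds, counts and medians were not tested in this way. Names, spans and promoters came from RefSeq (GRCr8), matched by symbol: 80 of 81 members directly and 1 by an older symbol, and 68 with a promoter. Named genes were all members, up to 6 genes per list by adjusted p against lean, and those in the lean list. Members, lists and motifs were chosen with earlier results of these data known. Folds of different tables were combined only for the ratios given under Other observations. For 79 genes in all of them, the obese tables implied a lean over WKY value. It missed the deposited one by a median of 0.34 in log2. Some genes that enter the counts are not reported here.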

Additional observations from a re-analysis of the deposited data

How the results depend on the processing

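Of 56 alternative counts over 14 results, 38 were within 1.5 times the count as deposited. These 38 include counts that could not change, as given below. Requiring a fold of 3 or more, or its inverse or less, is a stricter limit that by construction keeps fewer genes. It left 3 members higher and 12 lower in obese against lean, and 5 higher and 15 lower in obese against WKY. In lean against WKY it left 1 higher. The same count over all listed genes was not made. The median folds of all genes that rose and fell lie close to this limit, at 3.01 and 0.314 against lean and 3.05 and 0.312 against WKY. At this limit kinases numbered 1 higher and 6 lower against lean and 3 higher and 9 lower against WKY. DUSPs numbered 0 higher and 5 lower against lean and 1 higher and 5 lower against WKY. Most listed kinases thus fell too, so their even split did not hold at this limit. Restricting kinases to the MAP2K and MAPK tiers left 3 higher and 6 lower against lean and 2 higher and 6 lower against WKY. Keeping the 10 typical MAP kinase phosphatases left 1 higher and 4 lower against lean and 2 higher and 4 lower against WKY. An adjusted p under 0.001 moved no count past that factor. It could not change the counts for lean against WKY, where the largest adjusted p was 0.000347. Counting per symbol could change no count, since each member symbol had 1 row in a list that held it. No paired analysis was possible because the files hold no values per rat, and the animal numbers in the labels do not recur between groups. Leaving out a rat, another normalization and a low-count filter need counts and were not run. Depth is unknown, so a member that is not listed cannot be called unchanged.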

Other observations

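For Map3k7, the folds of 14.3 for obese against WKY and 5.46 for lean against WKY in the authors' deposited tables give a ratio of 2.62 for obese over lean, above the list's limit of 2, and the gene is not listed in that comparison. Such ratios are imprecise: for 79 genes in all 3 tables, a ratio formed from the obese tables missed the deposited lean over WKY fold by a median of 0.34 and by up to 2.56 in log2. Of 152 genes in both WKY tables, 98 have such a ratio of at least 2 or at most 0.5, and 23 of these are not in the authors' deposited table for obese against lean.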
